A study of Sus scrofa with 16 samples.

Results

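The oxidative phosphorylation genes described here are the nuclear-coded subunits of respiratory complexes I to IV, cytochrome c and the ATP synthase (complex V), measured in pig subcutaneous adipose tissue. They were chosen by name. Non-control probes were taken whose gene name starts with NDUF, UQCR or ATP5, or with COX and a digit from 4 to 8, together with CYC1, CYCS and SDHA to SDHD, and with COX7A1 left out. The rule named 126 of the 43603 probes, for 26 genes. Of these, 123 probes were well above background on at least 8 arrays and 122 were fitted, for 25 genes among 32097 fitted probes. The fitted genes were 6 of complex I, 3 of complex II, 2 of complex III, cytochrome c (CYCS), 5 of complex IV and 8 of complex V. Complexes were assigned by gene name, so NDUFA4, since assigned to complex IV, is counted under complex I throughout. Neither COX8H probe passed, so COX8H is described by its values only. One further COX7C probe and 1 further SDHB probe were not fitted, the first for low signal and the second because outlier spots left too few values.

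Residual feed intake (RFI) is the feed an animal eats beyond what its growth and maintenance predict. The 16 pigs weighed 20 kg when the tissue was taken and were fed ad libitum. Of these, 8 belonged to a line selected for low RFI (RFIneg) and 8 to a line selected for high RFI (RFIpl), with 1 single-colour array per pig. The labels number the pigs 1 to 8 in each line and do not say what sets replicates 1 to 4 apart from replicates 5 to 8; sex and age were not given in the sources used here. Each of the 4 slides held 1 array of every combination of line and replicate block, so neither line nor block was tied to a slide. Between 68.7% and 80.3% of spots were well above background, no spot was saturated, and all 15 measured white adipocyte markers were well above background on every array. Low-RFI replicate 8 carried a strong skeletal muscle signal, and 2 further arrays (low-RFI replicate 6, high-RFI replicate 7) carried a weaker one; values without these 3 arrays are given where they bear on a result. Values are log2 signal minus the array's 75th percentile, so 0 is that percentile and a difference of 1 is a doubling. A probe's level cannot be set against another probe's. In whole tissue, fewer cells of a type and less RNA per cell cannot be told apart.

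The respiratory chain sits in the inner mitochondrial membrane. Complex I takes electrons from NADH and complex II from succinate, ubiquinone carries them to complex III, cytochrome c carries them on to complex IV, and complex IV passes them to oxygen. Complexes I, III and IV pump protons, and the ATP synthase uses the resulting gradient to make ATP. All subunits of complex II and most of the others are coded in the nucleus, while a small set of complex I, III, IV and V subunits is coded in mitochondrial DNA. White adipocytes hold fewer mitochondria than muscle or brown adipocytes and use them for fatty acid synthesis and breakdown as well as for ATP.

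Each value rests on 60-base probes printed on the array, and several results turn on which probe is read. SDHA, the succinate-binding subunit of complex II, had the smallest interaction p among the 25 genes, each read by its brightest probe. COX7C, a small subunit of complex IV, was the only gene whose brightest probe was lower in the low-RFI line. Their brightest probes are given first, in lower case. A pair of NDUFB9 probes overlaps by 50 bases and gave line differences of unlike size; the last 30 bases of each are shown, with the bases after the shared run in capitals. A pair of CYCS probes differs at 3 of 52 aligned bases, A17G, C19G and T29C, counted from 1 at the 5′ end of the brighter probe; 30 aligned bases are shown with those bases in capitals. The last is the end of a COX8H probe, with the letters ATTAAA of a polyadenylation signal in capitals. No genome was used here, so the probes carry no coordinates.
SDHA (A_72_P380073): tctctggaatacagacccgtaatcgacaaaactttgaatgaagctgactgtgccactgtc
COX7C (A_72_P758554): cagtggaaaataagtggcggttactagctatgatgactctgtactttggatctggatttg
NDUFB9 (A_72_P680773): aggacatacgcttgccctaataaagtaacC
NDUFB9 (A_72_P473353): gcttgccctaataaagtaacTCAATATGGT
CYCS (A_72_P573694): gctgtaccAtCagcacagatTtgtaaatta
CYCS (A_72_P592869): gctgtaccGtGagcacagatCtgtaaatta
COX8H (A_72_P223572): gggATTAAAgcttccttactcctcaaaaaa
Among the brightest probes of the 25 genes, 9 (36%) held the polyadenylation signal letters AATAAA on the probe strand, against 10.3% of the 32097 fitted probes, which describes where the probes lie along the messages. Their median GC content was 40% (range 35% to 55%), against 41.7% over all fitted probes.

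The subunit genes moved together from pig to pig, and the spread between pigs of a line was larger than the difference between lines. For each gene the mean over all arrays was subtracted, and the 25 deviations of an array were summarised by their median. The lowest median, -0.50, belonged to high-RFI replicate 5, and the next, -0.42, to low-RFI replicate 1. The highest were 0.34 on low-RFI replicates 8 and 4 and 0.31 on low-RFI replicate 5. On low-RFI replicate 1 all 25 genes were below their own mean, from -1.05 for CYCS to -0.06 for COX7C. High-RFI replicate 5 had 23 genes below their mean among the 24 with a value, and 24 of 24 were above it on low-RFI replicate 5. Across the other arrays the medians ran from -0.22 on high-RFI replicate 7 to 0.20 on high-RFI replicate 3. The 2 lowest arrays thus came from different lines, and the 3 highest were all low-RFI.

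**Figure D1:**
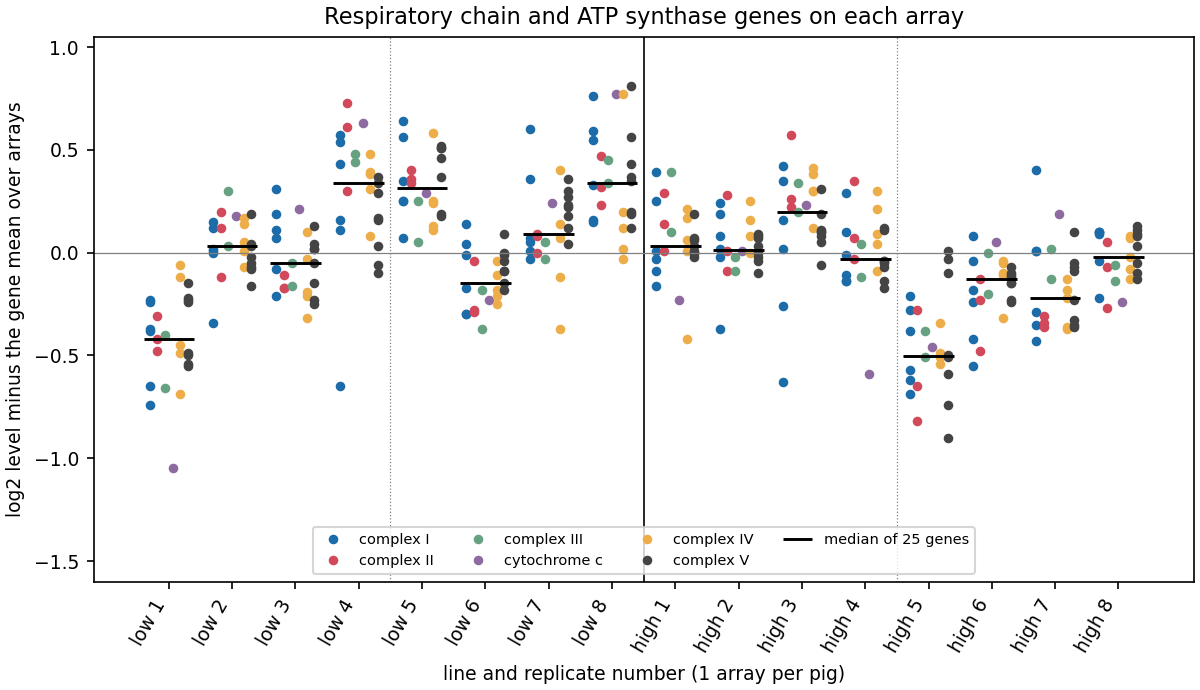
Deviation of each gene from its own mean over the arrays (y axis, log2) on each of the 16 arrays (x axis, low-RFI replicates 1 to 8, then high-RFI replicates 1 to 8), with points coloured by complex and a bar at the median of the 25 genes. The lowest medians are -0.50 (high-RFI replicate 5) and -0.42 (low-RFI replicate 1), and the single low point of low-RFI replicate 1 is CYCS at -1.05.

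As a description of how alike the genes were over the 16 arrays, Pearson's r over the 300 pairs of genes had a median of 0.65 and ranged from -0.69 to 0.96. Between the subunit genes and all other fitted probes the median was -0.05, over the 23 genes with a value on every array. The median was 0.65 for pairs of genes in different complexes, 0.53 within complex I, 0.80 within complex II, 0.65 within complex IV and 0.63 within complex V. Arrays share their scaling, so these values are not independent of it. UQCRB, the ubiquinone-binding protein of complex III, was closest to the rest (median r with the other genes 0.83), followed by ATP5A1, the alpha subunit of the ATP synthase (0.82). NDUFAB1, which serves both as an accessory subunit of complex I and as the mitochondrial acyl carrier protein, had a median r of 0.12. COX7C and ATP5G2, 1 of the genes for the c subunit of the ATP synthase ring, each had 0.27. NDUFAB1 lay at -0.65 on low-RFI replicate 4, an array where 22 of the 25 genes were above their mean. Its only probe had a mean level of -1.28, and why it parted from the rest was not tested.

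How far a gene swung between pigs differed from gene to gene, also within a complex. CYCS ranged over 1.83 (SD 0.46, n = 16), NDUFA4 over 1.33 (SD 0.43), SDHA over 1.43 (SD 0.41) and ATP5B, the catalytic beta subunit, over 1.46 (SD 0.39). ATP5G2 ranged over 0.47 (SD 0.13) and ATP5E, the epsilon subunit, over 0.51 (SD 0.15). Within complex V, ATP5B thus had the widest range of the 8 genes and ATP5G2 the narrowest.

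Over all 16 pigs no subunit gene passed the threshold between the lines. Low-RFI was the higher line for 24 of 25 genes, with a median difference of 0.13 on the log2 scale against 0.0035 over all fitted probes, and COX7C, read by its brightest probe, was the exception at -0.14; its other 2 probes gave 0.09 and 0.05. In limma no gene of the 25 and no probe of the 122 had an adjusted p under 0.05, against 0.0% of the 32097 fitted probes (0 called), and each adjusted p was 1. At an unadjusted p under 0.05 there were 0 of 25 genes, against 1.85% of all probes in the direction of a higher low-RFI level. The 95% interval of the difference excluded a 2-fold change for 25 of 25 genes and a 1.5-fold change for 21 of 25. Quantile scaling left 19 of 25 genes positive with a median of 0.07. With normexp background correction 25 of 25 were positive with a median of 0.24, where the median over all probes had itself shifted to -0.12.

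Among the brightest probes, the largest difference over all pigs was that of COX6B, a subunit on the intermembrane side of complex IV. Its level had a lowest, median and highest value of 4.50, 5.37 and 5.96 in the low-RFI line and of 4.65, 5.10 and 5.30 in the high-RFI line. The lines overlapped, and low-RFI was higher by 0.33 (SE 0.18, 5.35 ± 0.46 against 5.02 ± 0.24, SD, n = 8 each, adjusted p = 1). The dimmer COX6B probe gave 0.05 (SE 0.22). ATP5I, the e subunit, which helps ATP synthases pair into dimers, ran from 5.99 (median 6.33) to 6.75 in low-RFI and from 5.73 (median 6.16) to 6.31 in high-RFI, a difference of 0.24 (SE 0.12, adjusted p = 1). NDUFC1, an accessory subunit of complex I, ran from 2.36 (median 2.86) to 3.49 and from 2.35 (median 2.61) to 2.83, a difference of 0.26 (SE 0.13, adjusted p = 1). In both the highest low-RFI values lay above the whole high-RFI range while the rest overlapped. The highest NDUFC1 value was that of low-RFI replicate 8, and without that array, or without the 3 arrays with muscle genes, the difference was 0.17. For ATP5B the difference of 0.28 (SE 0.18) was 0.17 without high-RFI replicate 5. At the other end, COX6A1, the isoform of subunit 6A found outside heart and skeletal muscle, was 7.25 ± 0.29 and 7.25 ± 0.26, a difference of 0.0019 (SE 0.14). COX6C differed by 0.02 (SE 0.11). The brightest COX7C probe, which has no value on high-RFI replicates 2 and 5, differed by -0.14 (SE 0.14, n = 8 and 6), and the 2 probes with a value on every array differed by 0.09 (SE 0.13) and 0.05 (SE 0.12).

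By complex, the median line difference over the genes was 0.14 for complex I (6 of 6 positive), 0.15 for complex II (3 of 3), 0.07 for complex III (2 of 2), 0.02 for complex IV (4 of 5) and 0.16 for complex V (8 of 8). CYCS differed by 0.26 (SE 0.21). NDUFA4, counted under complex I by its name, differed by 0.14 (SE 0.21). Within single slides, which hold 2 arrays of each line, the median over the genes was 0.13, 0.17, 0 and 0.23, so 1 slide showed no shift. None of these medians was tested.

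Split by replicate number, the genes leaned in opposite directions in the 2 blocks, and no gene passed the threshold in either. Among replicates 1 to 4 the low-RFI level was lower for 21 of 25 genes, with a median of -0.10 (all probes -0.0057); 0 genes were called, against 0.0156% of all probes, and the smallest adjusted p was 0.941. Among replicates 5 to 8 low-RFI was higher for 24 of 25 genes, with a median of 0.37 (all probes 0.0056); 0 genes were called, against 0.0% of all probes, and the smallest adjusted p was 0.85. At an unadjusted p under 0.05 there were 11 of 25 genes and 52 of 122 probes among replicates 5 to 8, all higher in low-RFI, against 2.92% of all probes in that direction. The test of the difference between the blocks, the interaction of line and block, was positive for 25 of 25 genes with a median of 0.51 (all probes 0.0075). It called 0 genes, against 0.0% of all probes, with a smallest adjusted p of 0.708, and 11 of 25 genes had an unadjusted p under 0.05, against 3.31% of all probes in that direction. The genes share their pigs, so their counts are not counts of independent events.

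These values leaned on a pair of arrays. Low-RFI replicate 1 and high-RFI replicate 5, the lowest in each line, lie in opposite blocks. Without both, an alternative chosen after the values were seen, the median interaction fell from 0.51 to 0.32 and 1 gene in place of 11 had an unadjusted p under 0.05. The median line difference was then 0.00 among replicates 1 to 4 and 0.26 among replicates 5 to 8. With quantile scaling the median interaction was 0.34, and 4 genes had an unadjusted p under 0.05. With normexp 11 of 25 genes were positive among replicates 1 to 4, with a median of -0.01, where the median over all probes had shifted to -0.122.

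**Figure D2:**
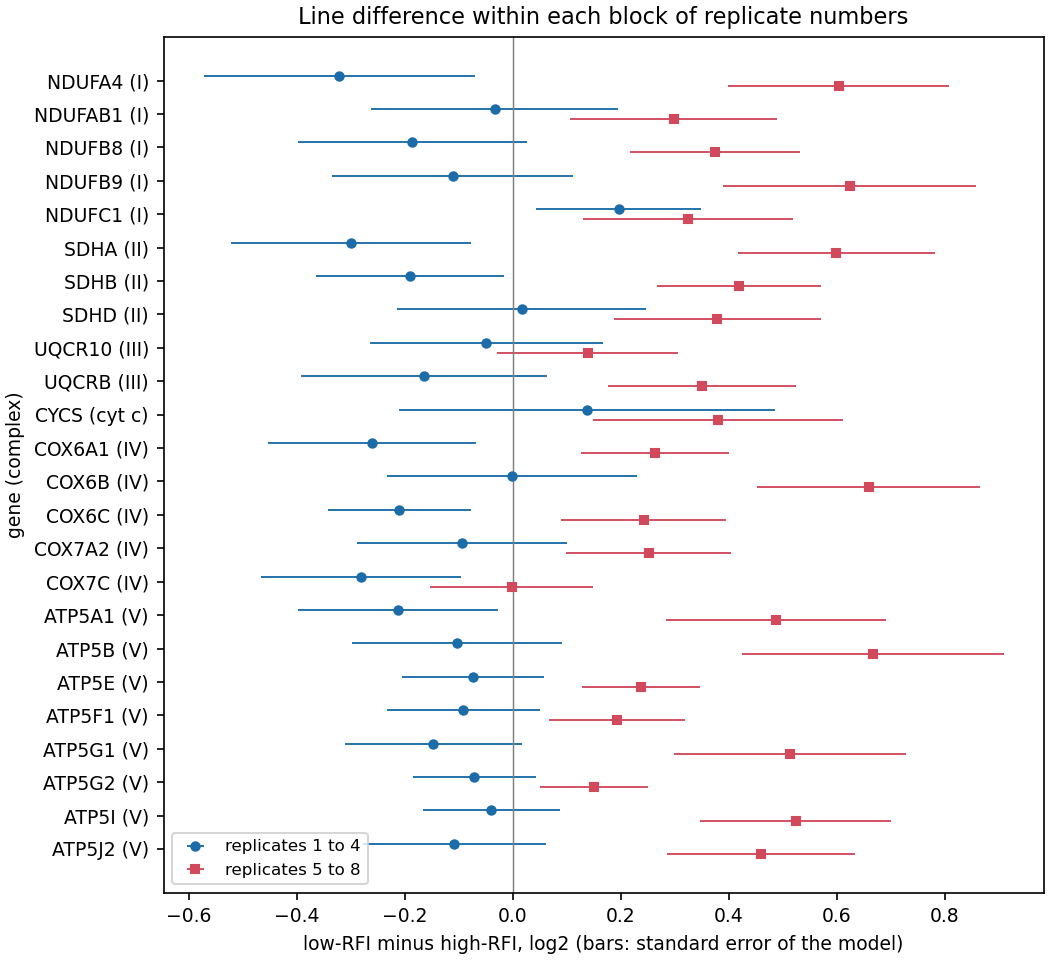
Line difference of 24 of the genes (x axis, low-RFI minus high-RFI, log2; y axis, gene with its complex) among replicates 1 to 4 (blue circles) and replicates 5 to 8 (red squares), with bars of 1 standard error from the model. All 24 red points lie to the right of their blue points, and the only red point not above 0 is COX7C.

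In complex II, SDHA had values of 4.13, 4.68, 4.38 and 5.16 on low-RFI replicates 1 to 4 and of 4.70, 4.83, 5.12 and 4.90 on high-RFI replicates 1 to 4. On replicates 5 to 8 it had 4.89, 4.27, 4.64 and 4.87 in low-RFI and 3.73, 4.07, 4.19 and 4.28 in high-RFI. In the second block the lowest low-RFI value lay just under the highest high-RFI value, and all others were separated. The difference was -0.30 (SE 0.22) in the first block and 0.60 (SE 0.18, adjusted p = 0.85) in the second, with an interaction of 0.90 (SE 0.29, adjusted p = 0.708). The first-block difference was -0.15 without low-RFI replicate 1 and -0.49 without low-RFI replicate 4. The 4 SDHA probes gave second-block differences of 0.38 to 0.60 (median 0.40) and interactions of 0.62 to 0.90 (median 0.68). The brightest probe had the highest of each. SDHB, the iron-sulfur subunit that passes electrons on from SDHA, differed by -0.19 (SE 0.17) and 0.42 (SE 0.15). SDHD, a membrane anchor of the complex, differed by 0.02 (SE 0.23) and 0.38 (SE 0.19).

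In complex I, the widest contrast among the brightest probes was that of NDUFA4, counted there by its name though since assigned to complex IV. Its values were 5.80, 6.69, 6.45 and 7.11 against 6.78, 6.78, 6.95 and 6.82 in the first block, and 6.88, 6.24, 6.54 and 7.12 against 5.84, 6.11, 6.10 and 6.31 in the second. The high-RFI values of the first block were close together and all above those of the second, while the low-RFI values were spread in both. The difference was -0.32 (SE 0.25) and 0.60 (SE 0.20), with an interaction of 0.93 (SE 0.34, adjusted p = 0.714). Leaving out 1 array moved the first-block difference from -0.32 to -0.08 (without low-RFI replicate 1) or -0.52 (without low-RFI replicate 4). The 6 NDUFA4 probes gave second-block differences of 0.47 to 0.60 (median 0.54) and interactions of 0.69 to 0.93 (median 0.80), again highest for the brightest probe. NDUFB9, an accessory subunit, differed by -0.11 (SE 0.22) and 0.62 (SE 0.23), and NDUFB8, another accessory subunit, by -0.19 (SE 0.21) and 0.37 (SE 0.16). NDUFC1 was higher in low-RFI in both blocks (0.20, SE 0.15, and 0.32, SE 0.19). NDUFAB1 differed by -0.03 (SE 0.23) and 0.30 (SE 0.19).

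In complex III and its carrier the interaction was 0.51 for UQCRB, 0.19 for UQCR10 and 0.24 for the brightest CYCS probe. The median over the 25 genes was 0.51. UQCRB differed by -0.16 (SE 0.23) and 0.35 (SE 0.17), and UQCR10, a small subunit, by -0.05 (SE 0.22) and 0.14 (SE 0.17). In the first block UQCR10 changed sign without low-RFI replicate 1 (0.10), without low-RFI replicate 3 (0.02) and without high-RFI replicate 1 (0.05), and UQCRB did so without low-RFI replicate 1 (0.04). CYCS had 2.62, 3.85, 3.88 and 4.30 in low-RFI and 3.44, 3.68, 3.90 and 3.08 in high-RFI in the first block, where low-RFI replicate 1 stood lowest. In the second block it had 3.96, 3.44, 3.91 and 4.44 against 3.21, 3.72, 3.86 and 3.43, with overlap. The differences were 0.14 (SE 0.35) and 0.38 (SE 0.23). The first became -0.07 without low-RFI replicate 4 and -0.01 without high-RFI replicate 4, and the interaction of 0.24 became -0.11 without low-RFI replicate 1.

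In complex IV, COX6B had 4.50, 5.12, 5.16 and 5.58 against 4.77, 5.19, 5.30 and 5.10 in the first block, and 5.77, 5.15, 5.58 and 5.96 against 4.65, 5.09, 4.82 and 5.26 in the second. The lines lay on the same mean in the first block (-0.0007, SE 0.23), and low-RFI was higher by 0.66 (SE 0.21, adjusted p = 0.85) in the second, where only low-RFI replicate 6 fell inside the high-RFI range. COX6A1 differed by -0.26 (SE 0.19) and 0.26 (SE 0.14), COX6C by -0.21 (SE 0.13) and 0.24 (SE 0.15), and COX7A2, the non-muscle isoform of subunit 7A, by -0.09 (SE 0.19) and 0.25 (SE 0.15). For COX7C the differences were -0.28 (SE 0.19, n = 4 and 3) and -0.0016 (SE 0.15, n = 4 and 3). The other 2 COX7C probes, which have a value on high-RFI replicate 5, gave 0.17 (SE 0.14) and 0.19 (SE 0.12) in the second block, so the sign there turned on the probe read.

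In complex V, ATP5B had 6.18, 6.64, 6.85 and 7.08 against 6.71, 6.70, 6.91 and 6.83 in the first block, and 7.23, 6.54, 7.08 and 7.27 against 5.82, 6.47, 6.36 and 6.80 in the second. High-RFI replicate 5 stood lowest, and 3 of the 4 low-RFI values of the second block lay above the whole high-RFI range. The difference was -0.10 (SE 0.19) and 0.67 (SE 0.24, adjusted p = 0.85). ATP5A1 differed by -0.21 (SE 0.19) and 0.49 (SE 0.20), ATP5G1, another gene for the c subunit, by -0.15 (SE 0.16) and 0.51 (SE 0.22), ATP5I by -0.04 (SE 0.13) and 0.52 (SE 0.18), and ATP5J2, the f subunit, by -0.11 (SE 0.17) and 0.46 (SE 0.17). ATP5E, ATP5G2 and ATP5F1, the b subunit of the peripheral stalk, had the smallest second-block differences of the complex, at 0.24 (SE 0.11), 0.15 (SE 0.10) and 0.19 (SE 0.13). ATP5F1 has no value on low-RFI replicate 5. In no gene of the 25 were the lines free of overlap in the second block with low-RFI higher (0 of 25), against 1.51% of all probes.

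The replicate blocks themselves differed across the array, and no subunit gene passed the threshold between them. Over both lines, replicates 5 to 8 against replicates 1 to 4 gave 1616 called probes (596 higher, 1020 lower, 5.03% of 32097), of which none was a subunit gene (0 of 25; 3 of 25 at an unadjusted p under 0.05, against 23.4% of all probes in either direction). With normexp only 17 probes were called in place of 1616. Of those 17, 11.8% were higher in the second block, against 36.9% of the 1616. The median over the subunit genes was -0.04 (all probes -0.0301), with 11 higher and 14 lower. It was 0.01 under quantile scaling and ran from -0.15 (without low-RFI replicate 1) to 0.04 (without high-RFI replicate 5) when 1 array was left out.

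NDUFAB1 had the largest difference in the direction of a higher second block. It was read by 1 probe only, with a mean level of -1.28, so no other probe could be set beside it. Replicates 1 to 4 held -1.51, -1.62, -0.97 and -1.93 in low-RFI and -1.27, -1.30, -1.91 and -1.42 in high-RFI. Replicates 5 to 8 held -0.64, -1.24, -0.67 and -1.12 in low-RFI and -1.48, -1.32, -0.88 and -1.18 in high-RFI. The blocks overlapped, and the second was higher by 0.42 (SE 0.155, adjusted p = 0.116). Without low-RFI replicate 3, the highest of the first block, the difference was 0.49 (adjusted p = 0.0414), the only call of a subunit gene among the alternatives run. ATP5G2 was higher in the second block by 0.16 (6.75 ± 0.11 against 6.58 ± 0.09, SD, n = 8 each, SE 0.07, adjusted p = 0.157). COX7C was lower by 0.26 (SE 0.12, n = 7 each, adjusted p = 0.196) and SDHA by 0.37 (SE 0.18, adjusted p = 0.239).

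The subunits coded by mitochondrial DNA did not share the low arrays of the nuclear-coded ones. All 13 of these genes were fitted. On low-RFI replicate 1 their mean deviation was 0.06, against -0.43 for the 25 nuclear-coded genes, and on high-RFI replicate 5 it was 0.08, against -0.46. Their highest array was high-RFI replicate 2 at 0.35, where the nuclear-coded mean was 0.03. COX1, the catalytic subunit of complex IV, deviated by 0.14 on both low arrays, and CYTB, the cytochrome b of complex III, by 0.22 and 0.08. None of the 13 passed the threshold in any of the 5 comparisons. Their median line difference was -0.11 among replicates 1 to 4 (1 of 13 positive) and 0.12 among replicates 5 to 8 (12 of 13 positive), with a median interaction of 0.25. The difference between the nuclear-coded and the mitochondrial DNA-coded genes was not tested.

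Among other genes of the mitochondrion, those of the tricarboxylic acid cycle were low and high on the same arrays as the subunit genes. Their mean deviation (11 genes) was -0.36 on low-RFI replicate 1, -0.50 on high-RFI replicate 5, 0.44 on low-RFI replicate 4 and 0.32 on low-RFI replicate 8. None was called in any comparison. In the second block 10 of 11 were higher in low-RFI (median 0.43), with MDH2, malate dehydrogenase, at 0.65 and IDH3A, a subunit of isocitrate dehydrogenase, at 0.60. FH, fumarase, was the exception at -0.24. Of the carriers and channels 5 of 6 were higher there (median 0.33), and CKMT2, the creatine kinase of muscle mitochondria, had the largest difference, 2.93 (SE 1.84), in a block that holds the 3 arrays with muscle genes. The 7 mitochondrial ribosomal proteins were all higher by small amounts (median 0.15). TFAM, which packages and transcribes mitochondrial DNA, differed by 0.13, and COX17, a copper chaperone for complex IV, by 0.23. No gene of these lists passed the threshold in any of the 5 comparisons.

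**Figure D3:**
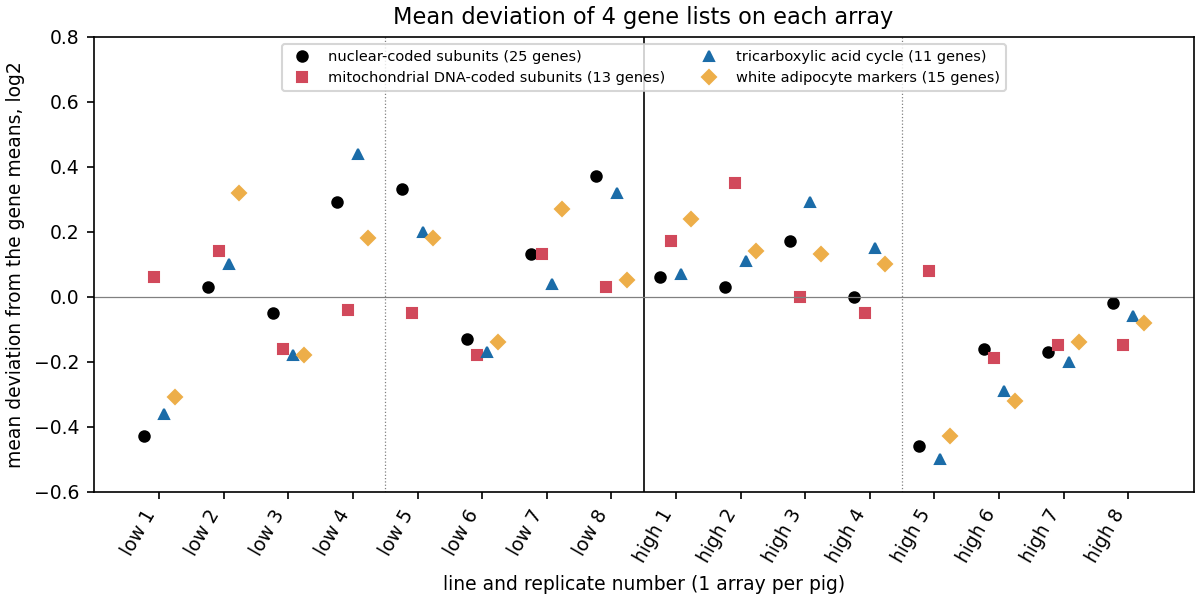
Mean deviation from the gene means (y axis, log2) on each of the 16 arrays (x axis) for the 25 nuclear-coded subunits (black circles), the 13 mitochondrial DNA-coded subunits (red squares), 11 genes of the tricarboxylic acid cycle (blue triangles) and 15 white adipocyte markers (yellow diamonds). On low-RFI replicate 1 and high-RFI replicate 5 the red squares lie at 0.06 and 0.08 while the other 3 lists lie between -0.50 and -0.31.

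Markers of the tissue's cell types differed in how they stood on these arrays. For the 15 white adipocyte markers the mean deviation was -0.31 (low-RFI replicate 1) and -0.43 (high-RFI replicate 5). In the second block 14 of 15 were higher in low-RFI (median 0.27), and the log2 of their summed level ran from 10.87 to 11.26 in low-RFI and from 10.72 to 11.05 in high-RFI. On high-RFI replicate 5 the 7 macrophage markers deviated by 1.38 and the 9 T and NK cell markers by 1.39. On low-RFI replicate 1 both were below their means, at -0.34 and -0.43. The 7 endothelial markers were above their mean on both arrays, at 0.17 on low-RFI replicate 1 and 0.26 on high-RFI replicate 5. The 4 smooth muscle markers (0.81 and -0.44) and the 4 brown adipocyte markers (0.12 and -0.45) stood on opposite sides. In the second block 6 of the 7 macrophage markers and 8 of the 9 T and NK cell markers were lower in low-RFI, with medians of -0.62 and -0.88. None of these markers was called between the lines, and their part in the subunit values was not tested.

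Most genes were read by several probes, and these were compared as repeat readings of 1 message in the same pigs. Of the 21 genes with more than 1 fitted probe, 19 had a single sign of the line difference over their probes among replicates 5 to 8, 20 in the interaction and 15 over all 16 pigs. ATP5A1 had 14 probes, of which 3 of 91 pairs share a run of at least 20 bases. All 14 were below their mean on both low arrays, from -0.68 to -0.39 on low-RFI replicate 1 and from -0.95 to -0.71 on high-RFI replicate 5. Their line differences among replicates 5 to 8 ran from 0.47 to 0.59, and the 9 probes of ATP5B gave 0.58 to 0.73. The low arrays were thus low for every probe of ATP5A1.

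The probes of some genes described here were less alike. For COX7C the brightest probe and the other 2 differed in the sign of the line difference, as given above. The COX6B probes correlated at 0.54 over the arrays, and their line differences were 0.33 and 0.05 over all pigs and 0.66 and 0.39 among replicates 5 to 8. Those of ATP5E correlated at 0.50, while their line differences among replicates 5 to 8 were 0.24 and 0.26. The NDUFB9 probes whose ends are printed above share 50 bases, and the one that runs 10 bases past the shared run ranged from 3.19 to 5.57 over the arrays, while the other ranged from 4.51 to 5.73. Among replicates 5 to 8 they gave line differences of 1.31 (SE 0.50) and 0.62 (SE 0.23). The CYCS probe with the 3 differing bases read 0.31 on low-RFI replicate 2, where the brighter CYCS probe read 3.85. Their first-block line differences were -0.79 (SE 0.74) and 0.14. Over the 12 CYCS probes these ran from -0.79 to 0.14, with a median of -0.06 and 1 probe positive. Of the 6 NDUFB8 probes, A_72_P533639 and A_72_P242552 did not follow the brightest one. These 2 are annotated to another sequence record than the other NDUFB8 probes, and whether they read the same message was not tested. Their second-block line differences were -0.12 (SE 0.20) and -0.21 (SE 0.30), against 0.37 for the brightest probe. Both lay below the 75th percentile on every array, at most -0.39 and -2.89.

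**Figure D4:**
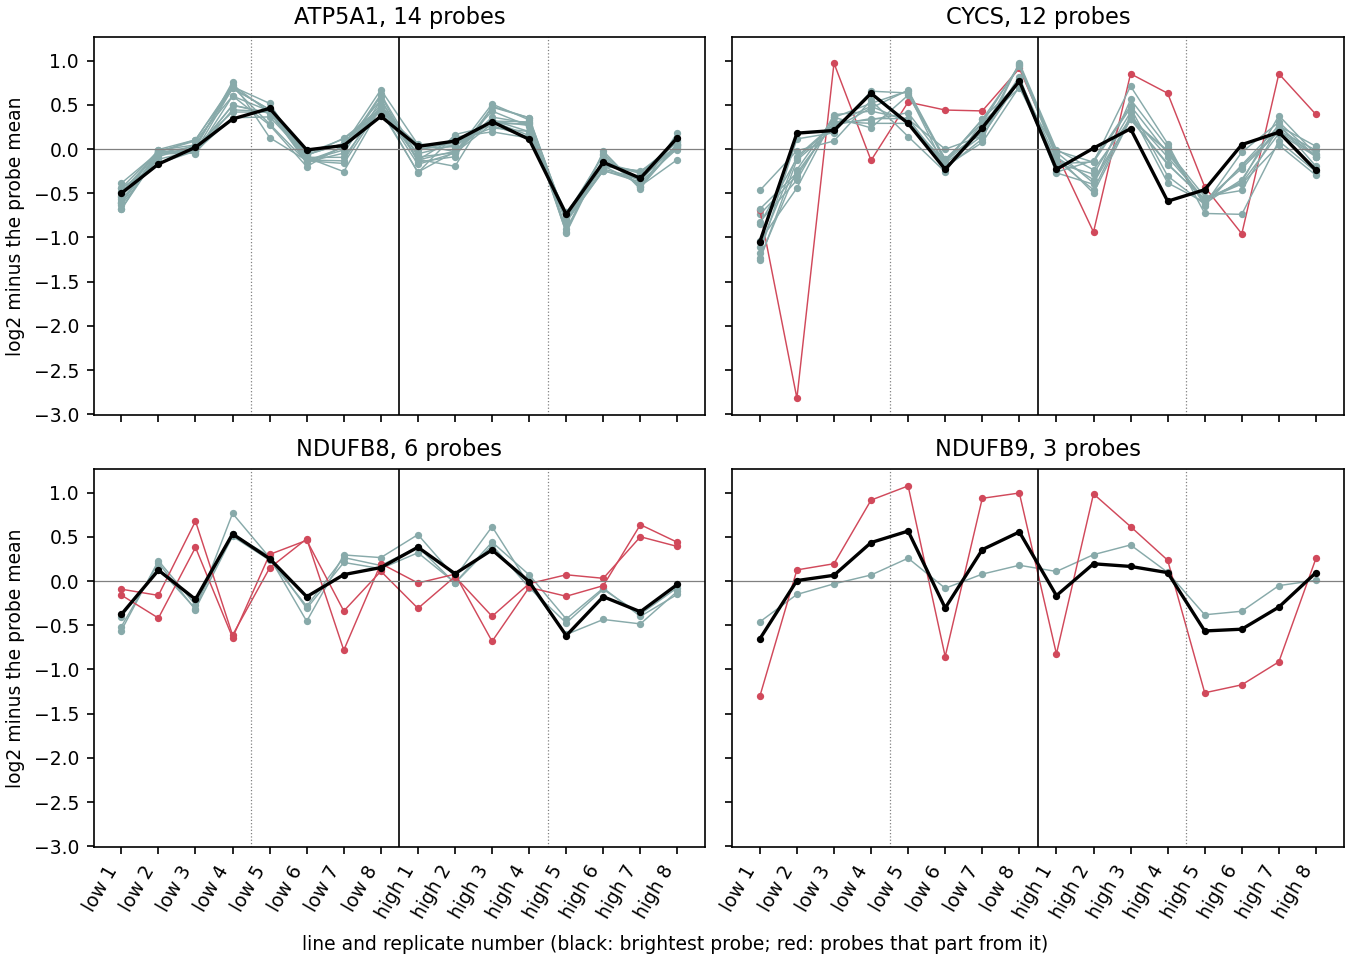
Signal of each probe minus its own mean over the arrays (y axis, log2) on the 16 arrays (x axis) for ATP5A1, CYCS, NDUFB8 and NDUFB9; the black line is the brightest probe, red lines are the probes described as differing from it, and the solid and dotted vertical lines part the lines and the replicate blocks. The 14 ATP5A1 probes lie together, with all of them between -0.95 and -0.71 on high-RFI replicate 5.

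COX8H is the form of subunit 8 of complex IV found in heart and skeletal muscle, and its probes were well above background on 4 and 3 arrays only. The brighter one read 5.56 on low-RFI replicate 8, -2.71 on low-RFI replicate 6 and -4.49 on high-RFI replicate 7, and -6.08 or less on the other 13 arrays. The second, which shares 50 bases with it, read 5.10, -3.36 and -5.42 on these arrays and -7.18 or less elsewhere. The same 3 arrays were highest for MYL1, a myosin light chain of fast muscle, at 7.99, 0.82 and -1.05, and for TNNT3, the troponin T of fast muscle, at 7.88, 0.20 and -1.68. Over the 17 fitted skeletal muscle genes of the 27 listed, the mean deviation was 7.65, 1.22 and 0.52 on them and at most -0.31 on the others. The log2 of their summed level was 11.44 on low-RFI replicate 8 and 4.43 to 5.76 on the other arrays.

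**Figure D5:**
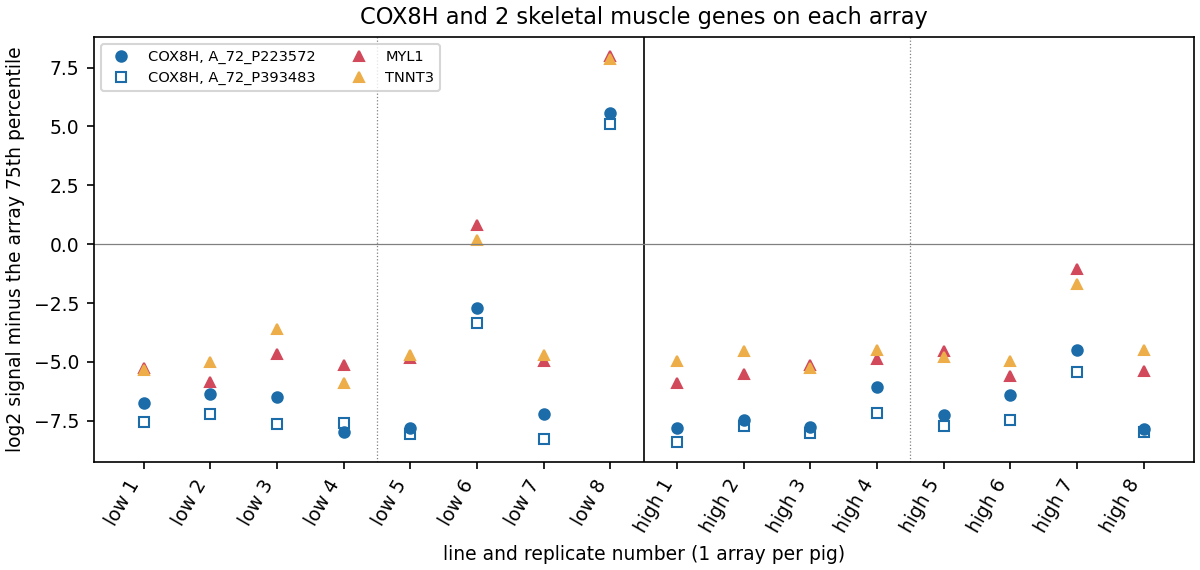
Level of both COX8H probes (blue), MYL1 (red) and TNNT3 (yellow) on each of the 16 arrays (y axis, log2 signal minus the array's 75th percentile). All are high on low-RFI replicate 8, where the brighter COX8H probe reads 5.56, and above the remaining arrays on low-RFI replicate 6 and high-RFI replicate 7.

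The 3 arrays lie in the second block, and 2 are of the low-RFI line. Without them, the median line difference of the 25 genes was 0.07 over the remaining 13 pigs (22 of 25 positive) and 0.44 within the second block (24 of 25), and the median interaction was 0.60 (24 of 25). Low-RFI replicates 5 and 7 then stand alone for their line in that block, against 3 high-RFI pigs. The part of muscle RNA in the levels of single subunit genes was not tested.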

How the data were processed

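RNA from 16 pigs was labelled with Cy3 and hybridised to single-colour Agilent arrays, 1 pig per array. Per the file headers, the scanner software subtracted background from each spot's intensity and removed spatial trends on each array before deposit, with no step between arrays. The authors' deposited log2 table equals the log2 of that signal minus each array's median over 28963 listed spots (Pearson r of 1 with the scanner values, column medians 0); it served as an alternative, and how those spots were chosen is not given in the sources used here. The submitters' processing notes list R 2.10.0.

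Here each array's processed signals were put on the log2 scale and centred on their 75th percentile, with outlier spots left out and spots of 1 probe averaged. Probes well above background on at least 8 arrays, with at least 6 values per line and 2 per line and replicate block, were kept (32097), with no pseudocount. A gene was read by its brightest kept probe. Lines, replicate blocks (1 to 4, 5 to 8) and their interaction were tested with limma 3.58.1 (lmFit, eBayes) in R 4.3.3, two-sided, with Benjamini-Hochberg adjustment over all kept probes and a threshold of 0.05. Every adjusted p is from limma; a line difference within a block was fitted on that block's 8 arrays. Nothing in the labels says what the replicate blocks are, and the p-values measure the spread between these pigs. The number of arrays limits the precision.

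Genes are named where they passed the threshold, or else as the 2 of each complex with the smallest p; tissue isoforms and genes with disagreeing probes are named too. Others were named after their values were seen. The values of 1 gene, which is included in the counts and medians, are not reported here. The members and lists were chosen with earlier results of these data known, and the interferon list and the fits without low-RFI replicate 1 and high-RFI replicate 5 were added after seeing the values. Alternatives covered scaling, background correction, filters, slide and replicate blocks, and leaving out arrays. On simulated data with 31665 probes, 85.1% of 2-fold and 44.8% of 1.5-fold line differences over all arrays were recovered, and 31.3% and 1.49% within replicates 5 to 8. The simulated noise was normal, independent between probes, and as wide as the spread within line and replicate block. It held no difference between the blocks, so recovery over all arrays may be lower in the real data.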

Additional observations from a re-analysis of the deposited data

Results flagged for a closer look

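ATP5G1, a gene for the c subunit of the ATP synthase ring, had 1 array that stood apart from its line. High-RFI replicate 5 read 4.96, and the other 7 high-RFI arrays lay between 5.40 and 5.65. The gap to the nearest array was 0.635 of the line's whole range. This was the only such case in 62 groups of 7 or 8 arrays examined. Chance flags about 1 group in 20. The 62 groups share their pigs and are not independent, so this count cannot be weighed against chance. The same array was the lowest in the median of the 25 genes.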

How the results depend on the processing

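Of the 31 summary values that moved under an alternative, all were counts of called probes or genes; the median differences of the 25 genes moved by less than the spread between replicates (SD 0.224), which is larger than some of the medians themselves. When 1 array was left out, the median ran from 0.08 (without any of low-RFI replicates 4, 5 and 8, or without high-RFI replicate 5) to 0.19 (without low-RFI replicate 1) over all pigs, and from -0.24 (without low-RFI replicate 4) to 0.0 (without low-RFI replicate 1) among replicates 1 to 4. It ran from 0.26 to 0.46 among replicates 5 to 8, from -0.15 to 0.04 between the blocks, at 0.01 or more without any of low-RFI replicates 4 and 6 and of high-RFI replicates 2, 3 and 5, and from 0.38 to 0.63 for the interaction. The count of 5 called probes among replicates 1 to 4 became 0 with normexp or with the spread shared over all arrays, 3 with probes well above background on all arrays, 1 with slide as a block, 3 with the replicate block, 3 without the 2 lowest arrays, and 3 to 5 when 1 array was left out. The 1616 called between replicate blocks became 17 with normexp, 838 with no filter, 294 without the 3 arrays with muscle genes and 964 without the 2 lowest arrays; leaving out 1 array gave 573 (without high-RFI replicate 4) to 4746 (without low-RFI replicate 3), and 0 to 1 subunit genes. Leaving out 1 array gave 0 to 1 called probes for the line over all pigs (1 without low-RFI replicate 4) and among replicates 5 to 8 (1 without high-RFI replicate 7). The cause of these moves was not tested.

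Equal replicate numbers did not pair the pigs (correlations -0.15 to 0.12, 1 of 8 over 0.1, and 1 of 8 highest with its own number). With the replicate block the interaction called 1 probe, no subunit gene, and the median differences were 0.13, -0.10, 0.37 and 0.51 as without it. Each replicate number holds 1 array of each line, so for genes with a value on every array these differences could not change.

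Signs of single genes were followed only for the genes that the naming rule gave in each comparison. Among these, signs turned for COX7C, CYCS, UQCR10 and UQCRB. Over all the subunit genes more signs turned, as the counts of positive genes given above show. Over all pigs UQCR10 was -0.03 with quantile scaling and -0.01 to 0.11 when 1 array was left out, and COX7C was 0.07 with normexp. Among replicates 1 to 4 UQCR10 was 0.14 with normexp and -0.18 to 0.10 when 1 array was left out, UQCRB -0.34 to 0.04 and CYCS -0.07 to 0.49. Without both of the lowest arrays UQCR10 was 0.10 and UQCRB 0.04 there. Among replicates 5 to 8 UQCR10 was -0.01 with quantile scaling. Between the blocks, leaving out 1 array gave -0.02 to 0.24 for CYCS and -0.18 to 0.0 for UQCRB. The interaction ran from -0.11 to 0.45 for CYCS and from 0.04 to 0.32 for UQCR10 when 1 array was left out, and was -0.22 and -0.04 without both lowest arrays. Apart from the call of NDUFAB1 without low-RFI replicate 3, the remaining 1322 values of the genes followed kept their direction and their side of the threshold.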

Other observations

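The arrays lowest for the subunit genes were the highest for 17 interferon-induced genes, a list added after the values were seen. High-RFI replicate 5 had a mean deviation of 1.88 and low-RFI replicate 1 one of 0.86, followed by 0.34 on high-RFI replicate 7 and 0.33 on high-RFI replicate 4. Among replicates 5 to 8 all 17 were lower in low-RFI (median -0.46), and among replicates 1 to 4 14 of 17 were higher (median 0.33), with none called.

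ND6, the complex I subunit coded on the opposite strand of mitochondrial DNA from the others, did not follow the other 12 genes. It deviated by 0.85 on low-RFI replicate 2, 0.87 on high-RFI replicate 7 and 0.74 on high-RFI replicate 6, and by -0.46 on high-RFI replicate 2, where the other 12 were between 0.25 and 0.68.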
